A study of Mus musculus with 8 samples.

Results

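The smooth muscle contractile genes described here are 10 genes whose products form or regulate the contractile filaments of smooth muscle: Acta2, Actg2, Tagln, Cnn1, Myh11, Myl9, Tpm1, Tpm2, Cald1 and Lmod1. They were chosen by symbol, and each matched 1 of the 50578 rows of the count matrix. All 10 passed the filter on low counts, which kept 15154 genes for testing. RNA-seq was performed on wild-type mouse embryonic fibroblasts (MEFs, group MEF, untreated) and on MEFs given 10 µM of carbidopa, of LY-364747 or of CHIR-99021. Each of the 4 groups held 2 libraries. The MEFs came from mid-gestation C57BL/6J embryos without head, tail, limbs and internal organs, so they were a mixed primary culture and not a cell line. They were at passage 3 to 5, attached for 2 h before the compound was added, and the medium was changed every 3 days. A time of treatment is given for the cells taken for PCR but, in the sources used here, not for the RNA-seq libraries, nor is it stated whether untreated cells received solvent. Carbidopa is an inhibitor of aromatic L-amino acid decarboxylase. CHIR-99021 is a GSK3 inhibitor and raises beta-catenin activity. LY-364747 is the spelling of the labels, while the study's text mostly names the compound LY-364947, an inhibitor of the TGF-beta type I receptor. The study asked whether the compounds move MEFs toward a hepatocyte-like state, and the labels call the treated cells hepatic-like.

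In smooth muscle, actin thin filaments carrying tropomyosin, calponin and caldesmon slide against myosin filaments once the regulatory light chain is phosphorylated. Many of these genes are switched on by serum response factor (SRF) bound to CArG boxes in their promoters, with myocardin or the actin-sensing coactivators MRTF-A and MRTF-B. Cultured fibroblasts also express a large share of this set, and TGF-beta raises it when they become myofibroblasts, the contractile cells of wound repair, for which Acta2 is the usual marker.

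Total counts ranged from 15039566 to 20504338 per library, and the coefficient of biological variation was 10.95%. Levels are given as CPM, a gene's count relative to the TMM-scaled library size in units of 1e6 counts, and a gene is called higher or lower at an adjusted p under 0.05 in edgeR's quasi-likelihood test. The carbidopa libraries differed from each other more than those of any other group, with a chi-square per degree of freedom of 34.6 against 4.31 to 9.21. The 12 fibroblast markers summed to 40430 and 40190 CPM in MEF and to between 9644 and 13130 CPM in the treated libraries, with Fn1, Postn and Col1a1 the most abundant in MEF. The 8 macrophage markers, led by Lyz2, were present as well. They summed to 1038 and 1078 CPM in MEF, 332 and 310.9 CPM with carbidopa, 233.4 and 236.4 CPM with LY-364747 and 73.99 and 82.7 CPM with CHIR-99021. The 8 hepatocyte markers gave 4 reads in each MEF library and between 11 and 21 in each treated library, none passed the filter, and Serpina1a and Tat had no read in any library. Alb, which encodes albumin, had 2 and 0 reads in MEF, 5 and 8 with carbidopa, 8 and 10 with LY-364747 and 6 and 7 with CHIR-99021. Hnf4a, a transcription factor of hepatocytes, had 1 and 2 reads in MEF, 6 and 7 with carbidopa, 10 and 9 with LY-364747 and 7 and 8 with CHIR-99021. Alb and Hnf4a were thus above MEF in every treated library, at no more than 0.5613 CPM. Afp, the next of the list by mean CPM, did not follow them. It had 1 and 2 reads in MEF, 0 and 3 with carbidopa and 0 in each library with LY-364747 or CHIR-99021. The ratio of pooled reads per library size to MEF was 4.41, 7.12 and 5.44 for Alb and 2.94, 5.01 and 4.18 for Hnf4a, with exact 95% intervals, for counting error only, that start at 0.998, 1.70 and 1.23 and at 0.808, 1.47 and 1.18. The groups are called by their compound.

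Promoter sequences were searched for letters that match the element SRF binds, close to the start of transcription. RefSeq (GRCm38.p6) gave 8 promoters for 7 members, and Actg2, Tagln and Myh11 had no entry. The 250 bases before each start were searched on both strands. A CArG box in its strict form, with only A or T between CC and GG, was present in the Myl9 promoter alone. Of 32841 promoters of this length 1.47% held one. A CArG-like element, in which 1 of the inner bases is not A or T, was present at Acta2 and Myl9, against 7.24% of all promoters. The letters CATTCC, the core of the MCAT element bound by TEAD factors, were present on either strand at Acta2, Tpm1, Cald1 and Lmod1, against 12.6% of all promoters. No CATTCC match overlapped a CArG or CArG-like element. These are matches of letters, and the absence of a match says only that the window does not hold it. The sequences below are those of Acta2, which fell most, Myl9, which holds the CArG box, and Tpm1 and Lmod1, which rose in at least 1 group. Each runs 5′ to 3′ on the strand of the gene, with the CArG, CArG-like or MCAT letters in capitals. Acta2 site 1 is at chr19:34255438-34255467 (bases -94 to -65 from the RefSeq start), Acta2 site 2 at chr19:34255388-34255417 (-44 to -15) and the Tpm1 site at chr9:67049252-67049281 (-68 to -39), all on the minus strand. The Lmod1 site is at chr1:135324671-135324700 (-142 to -113) and the Myl9 stretch at chr2:156775214-156775419 (-250 to -45), both on the plus strand. The Acta2 and Tpm1 sites lie within a first exon of GENCODE M21, whose transcripts start further upstream than those of RefSeq, and the Lmod1 and Myl9 sequences lie outside annotated exons. Of the 250 bases searched, only 33 at Acta2, 57 at Tpm1 and 39 at Tpm2 lie upstream of the gene in GENCODE M21.
Acta2 site 1: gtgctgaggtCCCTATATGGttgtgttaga
Acta2 site 2: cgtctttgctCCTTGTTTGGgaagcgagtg
Tpm1 site: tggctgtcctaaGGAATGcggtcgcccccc
Lmod1 site: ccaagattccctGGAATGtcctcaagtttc
Myl9 upstream stretch: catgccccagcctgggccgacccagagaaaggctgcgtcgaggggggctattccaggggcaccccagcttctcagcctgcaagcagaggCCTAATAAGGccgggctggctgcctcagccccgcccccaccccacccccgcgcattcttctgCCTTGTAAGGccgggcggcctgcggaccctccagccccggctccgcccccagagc

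Untreated MEFs expressed all 10 members. Per kb of merged exons, Acta2 had the highest level, 940.4 ± 61.61 CPM per kb (SD, n = 2), followed by Tagln with 419.2 ± 24.43 CPM per kb. Cald1 and Tpm1 came next with 268.5 and 109.5 CPM per kb, then Myl9 with 91.94, Tpm2 with 35.02 and Actg2 with 27.34 CPM per kb. Cnn1, Lmod1 and Myh11, the last being the myosin heavy chain that is most specific to differentiated smooth muscle, closed the order with 7.167, 5.162 and 2.792 CPM per kb. The MEF libraries gave the same order. In bulk RNA, fewer cells of a type and less RNA per cell cannot be told apart, so every level below is an average over the culture.

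The order was different after treatment. Tpm1 came first in each treated group, with 260.6 CPM per kb after carbidopa, 244.2 after LY-364747 and 411.6 after CHIR-99021. Acta2 ranked 4 of 10 after carbidopa and LY-364747, with 41.31 and 47.19 CPM per kb, and 5 of 10 after CHIR-99021, with 52.11 CPM per kb. After carbidopa its level did not differ from that of Myl9 beyond the spread, since Myl9 had 44.52 and 35.65 CPM per kb and Acta2 had 41.03 and 41.59. Myh11 was last in every group. Of the summed levels per kb of the 10 members, Acta2 made up 50.1% and 48.5% in the MEF libraries and between 4.0% and 8.45% in the treated libraries, whereas Tpm1 made up 5.7% and 5.79% in MEF and between 35.4% and 39.5% in the treated libraries. Without division by length, the members together took 7155 ± 58.09 CPM in MEF, 4282 ± 296.2 with carbidopa, 4176 ± 112.6 with LY-364747 and 6520 ± 369.6 with CHIR-99021. The sum with CHIR-99021 was thus nearest to that of MEF, with Tpm1 in the place of Acta2. On total counts in place of TMM-scaled library sizes it was 6711 CPM, above the 6343 CPM of MEF and not below it.

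**Figure D1:**
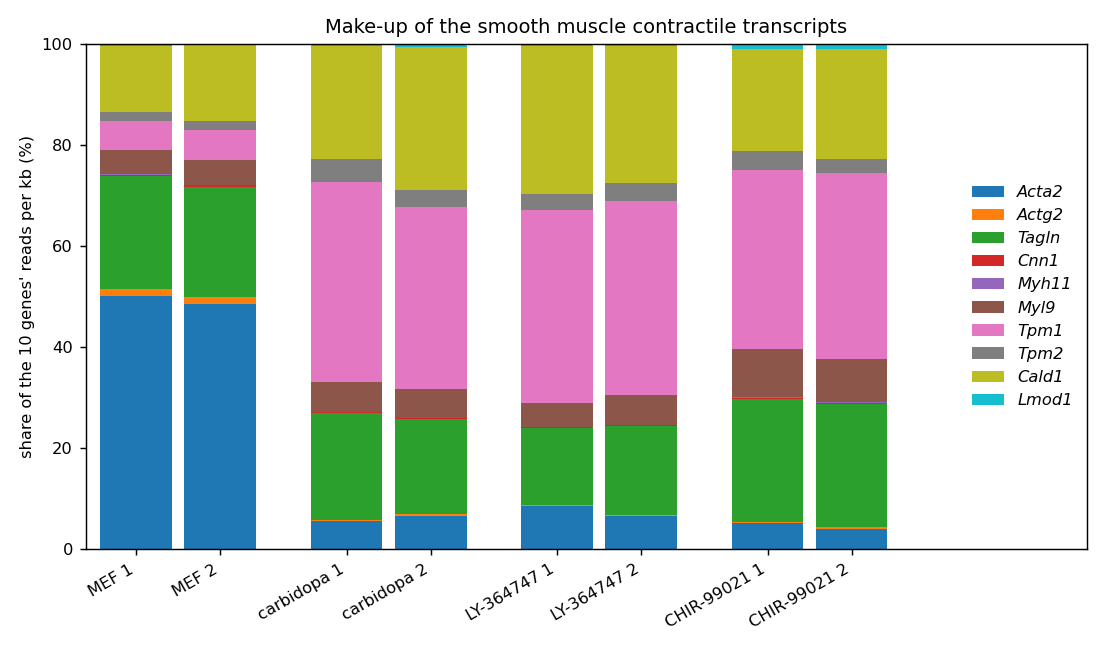
Share of each member in the summed level of the 10 genes, in percent of reads per kb of merged exon, for each of the 8 libraries. Acta2 held 50.1% and 48.5% in the MEF libraries and at most 8.45% in any treated library, and Tpm1 held between 35.4% and 39.5% in the treated libraries.

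Against MEF, 8 of the 10 members were lower with carbidopa, Tpm1 was higher and Tpm2 was uncalled. Whether solvent or time in culture had a part in the differences from MEF was not tested. Of all 15154 genes tested, 19.7% were lower and 18.0% higher in this comparison. The median log2 fold change of the members was -1.40, and that of all genes tested was 0.04. With LY-364747, 9 members were lower and Tpm1 was higher, against 17.2% of all genes lower and 13.7% higher. The median was -1.71 for the members and 0.03 for all genes. With CHIR-99021, 5 members were lower (Acta2, Actg2, Tagln, Cnn1 and Myh11), Tpm1 and Lmod1 were higher and Myl9, Tpm2 and Cald1 were uncalled. Of all genes, 20.1% were lower and 18.7% higher. The median with CHIR-99021 was -0.38 for the members and 0.04 for all genes. With 1 library left out, the members that differed numbered 8 to 10 with carbidopa, 8 or 9 with LY-364747 and 6 or 7 with CHIR-99021. The calls over all genes moved more. They went from 5717 with carbidopa to 3375 and 3142 without MEF replicates 1 and 2 (7996 without carbidopa replicate 2), from 4694 with LY-364747 to between 2841 and 3095 without any 1 of its 4 libraries, and from 5878 with CHIR-99021 to 3905 and 3459 without MEF replicates 1 and 2 and 3433 without CHIR-99021 replicate 1. The 3 comparisons share the MEF libraries, so their values are given side by side and not counted as separate support.

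**Figure D2:**
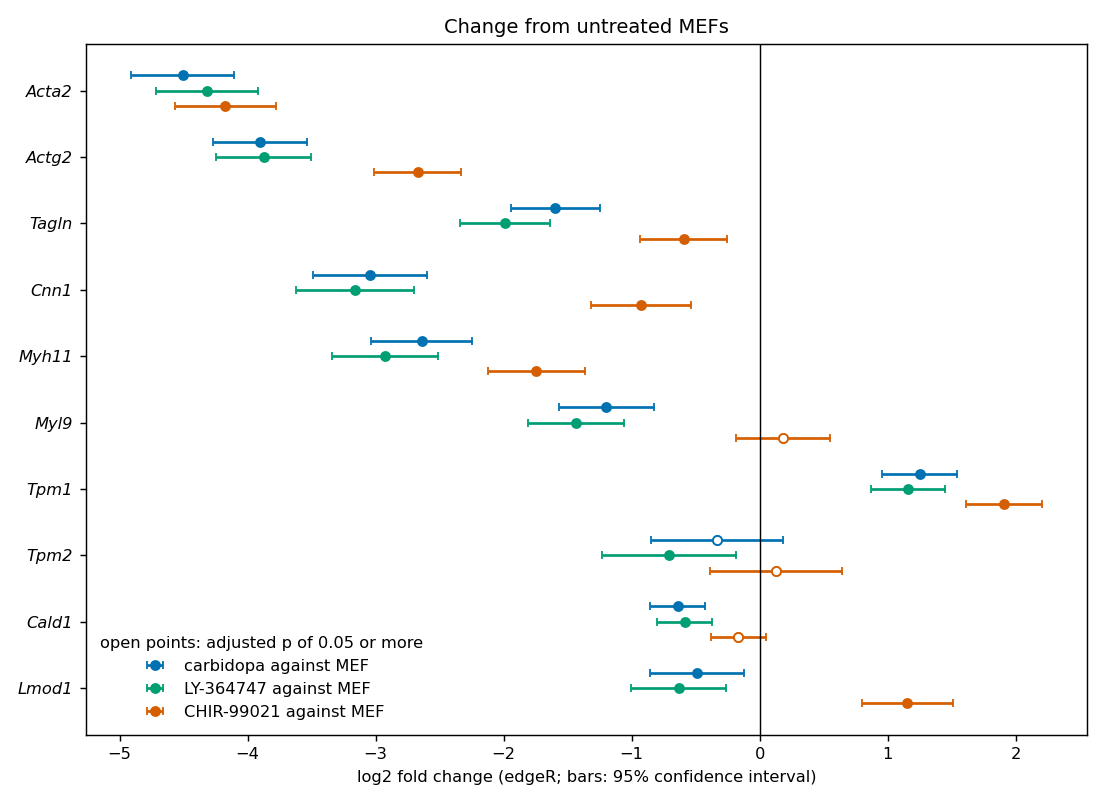
Log2 fold change of each member against MEF for carbidopa, LY-364747 and CHIR-99021, with 95% confidence intervals from edgeR's quasi-likelihood fit of all 8 libraries. Acta2 lies near -4.51, -4.32 and -4.17 in the 3 groups, Tpm1 lies above 0 in all, and Lmod1 lies below 0 with carbidopa and LY-364747 and at 1.16 with CHIR-99021.

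Acta2 (chromosome 19, 34241090 to 34255590, minus strand) encodes the alpha actin of vascular smooth muscle. It had 2161 and 1970 CPM in the MEF libraries. Its level was 90.1 and 91.34 CPM with carbidopa, 113.9 and 93.35 with LY-364747 and 134.2 and 94.65 with CHIR-99021. Every treated library lay far below both MEF libraries, and the treated groups lay close to each other. The fall was 22.8-fold with carbidopa (log2 fold change -4.51 ± 0.18 SE, adjusted p = 4.52e-08 in edgeR's quasi-likelihood test), 19.9-fold with LY-364747 (-4.32 ± 0.18, adjusted p = 5.7e-08) and 18.0-fold with CHIR-99021 (-4.17 ± 0.18, adjusted p = 6.48e-08). Between the compounds Acta2 was the one member without a call in any pair. The log2 difference of CHIR-99021 from carbidopa was 0.34 (95% confidence interval -0.02 to 0.69, adjusted p = 0.194), and that from LY-364747 was 0.14 (-0.21 to 0.50, adjusted p = 0.594). Both intervals include 0 and differences up to their upper bounds.

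Actg2 (chromosome 6, 83512905 to 83536265, minus strand) encodes the gamma actin of visceral smooth muscle. It had 44.69 and 40.46 CPM in MEF, 3.06 and 2.612 with carbidopa, 2.582 and 3.195 with LY-364747 and 6.794 and 6.558 with CHIR-99021. MEF was highest, CHIR-99021 lay between, and the carbidopa and LY-364747 libraries overlapped. The log2 fold changes from MEF were -3.90 ± 0.17, -3.88 ± 0.17 and -2.67 ± 0.15 in that order of treatment, of which the falls with LY-364747 and CHIR-99021 were 14.7- and 6.37-fold (adjusted p = 6.54e-08, 7.64e-08 and 4.84e-07 in edgeR's quasi-likelihood test). Actg2 was 2.35-fold higher with CHIR-99021 than with carbidopa (adjusted p = 0.00141) and 2.30-fold higher than with LY-364747 (adjusted p = 0.00174). The deposited counts are of genes, and of the 25-base words in the transcripts of the smooth muscle actins 3.5% (Acta2) and 3.96% (Actg2) also occur in other genes. No member shared a word of 75 bases with another gene.

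**Figure D3:**
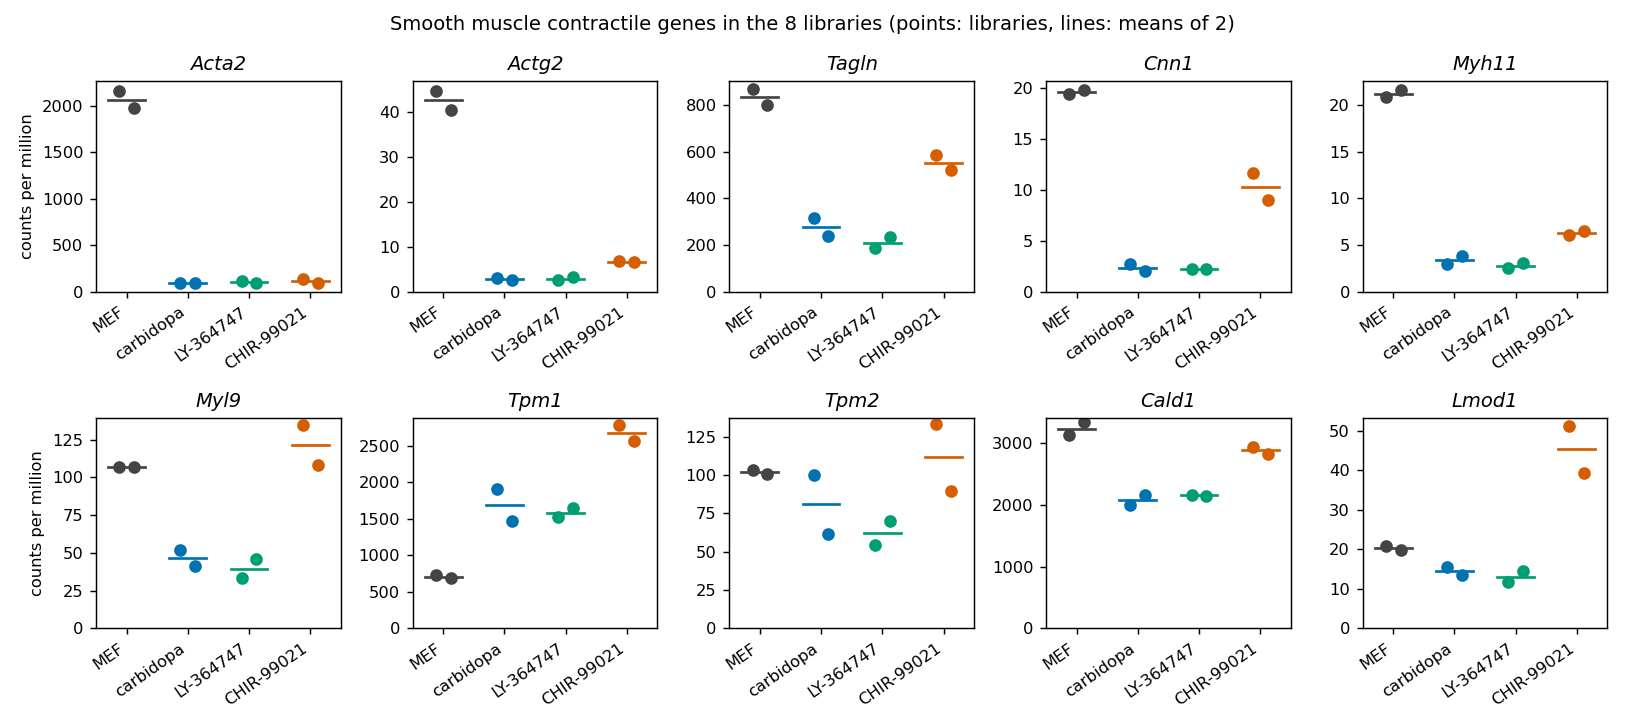
CPM of each of the 10 members in the 8 libraries, 1 panel per gene, with points for libraries and a line at the group mean. MEF stands apart at the top for Acta2, Actg2, Tagln, Cnn1 and Myh11, the treated groups stand above MEF for Tpm1, and CHIR-99021 stands above all others for Tpm1 and Lmod1.

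Tagln, Cnn1 and Myh11 are markers of the differentiated smooth muscle cell, and all were lower in every treated group. Tagln (chromosome 9, 45929619 to 45936058, minus strand) encodes the actin-bundling protein SM22-alpha. It had 867.7 and 799.1 CPM in MEF, 315.1 and 236.5 with carbidopa, 186.5 and 232.9 with LY-364747 and 583.7 and 520.4 with CHIR-99021. The CHIR-99021 libraries lay between MEF and the other treated groups, with no overlap. The log2 fold changes from MEF were -1.60 ± 0.16, -1.99 ± 0.16 and -0.59 ± 0.15, with adjusted p = 2.44e-05, 5.58e-06 and 0.0112 in edgeR's quasi-likelihood test. The last call was lost without MEF replicate 1 (-0.53, adjusted p = 0.0844) or CHIR-99021 replicate 2 (-0.51, adjusted p = 0.0863). Tagln was 2.00-fold higher with CHIR-99021 than with carbidopa and 2.63-fold higher than with LY-364747. Of the 1988 exon bases of Tagln, 1241 overlap Gm48529 and 108 overlap Pcsk7, both on the opposite strand, and whether the counting used strand is not given in the sources used here.

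Cnn1 (chromosome 9, 22099216 to 22109630, plus strand) encodes calponin 1, which binds actin and restrains myosin. It had 19.41 and 19.81 CPM in MEF, 2.683 and 2.053 with carbidopa, 2.189 and 2.183 with LY-364747 and 11.63 and 8.995 with CHIR-99021. The carbidopa and LY-364747 libraries overlapped at the bottom, and both CHIR-99021 libraries lay between them and MEF. The falls were 8.26-fold, 8.95-fold and 1.90-fold (log2 fold changes -3.05 ± 0.20, -3.16 ± 0.21 and -0.93 ± 0.18, adjusted p = 1.44e-06, 1.38e-06 and 0.0022 in edgeR's quasi-likelihood test). Among the members Cnn1 differed most between compounds, with 4.35-fold more RNA after CHIR-99021 than after carbidopa (adjusted p = 0.000135) and 4.71-fold more than after LY-364747 (adjusted p = 0.000134).

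Myh11 (chromosome 16, 14194535 to 14291372, minus strand), the smooth muscle myosin heavy chain, had 20.82 and 21.62 CPM in MEF. It had 3.013 and 3.779 CPM with carbidopa, 2.526 and 3.035 with LY-364747 and 6.103 and 6.558 with CHIR-99021. As for Actg2, MEF was highest, CHIR-99021 lay between, and the carbidopa and LY-364747 libraries overlapped. The log2 fold changes were -2.64 ± 0.18, -2.93 ± 0.19 and -1.74 ± 0.17 (adjusted p = 1.7e-06, 1.12e-06 and 2.34e-05 in edgeR's quasi-likelihood test). Myh11 was 1.86-fold higher with CHIR-99021 than with carbidopa (adjusted p = 0.0104), a call that was lost when CHIR-99021 replicate 1 (adjusted p = 0.0549) or replicate 2 (adjusted p = 0.0639) was left out and when those groups were fitted alone (adjusted p = 0.0582).

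Myl9 (chromosome 2, 156775420 to 156781658, plus strand) encodes the regulatory light chain whose phosphorylation starts contraction. It had 107.1 and 106.6 CPM in MEF, 51.73 and 41.43 with carbidopa, 33.4 and 45.64 with LY-364747 and 134.4 and 107.9 with CHIR-99021. The carbidopa and LY-364747 libraries overlapped and lay below MEF, while both CHIR-99021 libraries lay just above MEF. It fell by 1.20 ± 0.17 on the log2 scale with carbidopa and by 1.43 ± 0.17 with LY-364747 (adjusted p = 0.00033 and 0.000103 in edgeR's quasi-likelihood test). The log2 difference of CHIR-99021 from MEF was 0.18, with a 95% confidence interval of -0.18 to 0.55 (adjusted p = 0.411). Myl9 was 2.60-fold higher with CHIR-99021 than with carbidopa and 3.06-fold higher than with LY-364747 (adjusted p = 0.000541 and 0.000249).

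The tropomyosins wind along the actin filament and gate its access to myosin. Tpm1 (chromosome 9, 67022590 to 67049406, minus strand) was the one member that rose in every treated group. It had 725.6 and 695 CPM in MEF, 1911 and 1469 with carbidopa, 1526 and 1642 with LY-364747 and 2780 and 2559 with CHIR-99021. All treated libraries lay above MEF, those with CHIR-99021 above the rest, and the carbidopa libraries enclosed those with LY-364747. The rises were 2.38-, 2.23- and 3.76-fold (log2 fold changes 1.25 ± 0.13, 1.16 ± 0.13 and 1.91 ± 0.13, adjusted p = 3.99e-05, 7.16e-05 and 2.05e-06 in edgeR's quasi-likelihood test). Tpm1 was 1.58-fold higher with CHIR-99021 than with carbidopa (adjusted p = 0.00766) and 1.69-fold higher than with LY-364747 (adjusted p = 0.00391). The first of these calls was lost without CHIR-99021 replicate 1 (adjusted p = 0.0746) and the second without LY-364747 replicate 1 (adjusted p = 0.0565). Tpm1, Tpm2 and Cald1 each make smooth muscle and non-muscle forms by alternative splicing or promoters, which counts per gene do not separate.

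Tpm2 (chromosome 4, 43514711 to 43523765, minus strand) had 103.3 and 100.5 CPM in MEF, 99.89 and 61.9 with carbidopa, 54.61 and 70.19 with LY-364747 and 133.5 and 89.66 with CHIR-99021. Its SE was the largest of the members in each comparison with MEF, and the CHIR-99021 libraries lay on both sides of MEF. The log2 fold changes from MEF were -0.33 ± 0.23 with carbidopa (adjusted p = 0.284 in edgeR's quasi-likelihood test), -0.71 ± 0.24 with LY-364747 (adjusted p = 0.0436) and 0.13 ± 0.23 with CHIR-99021 (adjusted p = 0.688). The call with LY-364747 was lost when any 1 of its 4 libraries was left out, with adjusted p = 0.155 and 0.134 without MEF replicates 1 and 2 and 0.236 and 0.0668 without LY-364747 replicates 1 and 2. Without carbidopa replicate 1 the fall with carbidopa was called (-0.72, adjusted p = 0.0184), and without CHIR-99021 replicate 1 the difference with CHIR-99021 changed sign (-0.18, adjusted p = 0.669). Tpm2 was 1.79-fold higher with CHIR-99021 than with LY-364747 (adjusted p = 0.0387), a call lost without CHIR-99021 replicate 1 (adjusted p = 0.343), LY-364747 replicate 1 (0.282) or LY-364747 replicate 2 (0.0756).

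Cald1 (chromosome 6, 34598500 to 34775473, plus strand) encodes caldesmon, a protein of the actin thin filaments that most cells make in a short form. It had the most reads of the members in MEF, 3126 and 3341 CPM, and 2000 and 2151 with carbidopa, 2163 and 2149 with LY-364747 and 2940 and 2826 with CHIR-99021. All treated libraries lay below MEF, and those with CHIR-99021 lay nearest to it. It fell by 0.64 ± 0.10 and 0.59 ± 0.10 on the log2 scale with carbidopa and LY-364747 (adjusted p = 0.000536 and 0.00102 in edgeR's quasi-likelihood test), and the log2 difference with CHIR-99021 was -0.17 ± 0.10 (adjusted p = 0.2, or 0.0497 where those groups were fitted alone). Cald1 was 1.39-fold higher with CHIR-99021 than with carbidopa (adjusted p = 0.0092), a call lost without CHIR-99021 replicate 1 (0.075) or with those groups fitted alone (0.102). It was 1.34-fold higher with CHIR-99021 than with LY-364747 (adjusted p = 0.0172), a call lost without CHIR-99021 replicate 1 (0.119), CHIR-99021 replicate 2 (0.0532), LY-364747 replicate 1 (0.141) or LY-364747 replicate 2 (0.1).

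Lmod1 (chromosome 1, 135324807 to 135368065, plus strand) encodes leiomodin 1, which nucleates actin filaments in smooth muscle. It had 20.82 and 19.94 CPM in MEF, 15.44 and 13.58 with carbidopa, 11.73 and 14.54 with LY-364747 and 51.36 and 39.4 with CHIR-99021. It was the one member called in opposite directions, since the CHIR-99021 libraries lay above MEF and all others below. The rise with CHIR-99021 was 2.23-fold (log2 fold change 1.16 ± 0.16, adjusted p = 0.00027 in edgeR's quasi-likelihood test). The falls with carbidopa (-0.49 ± 0.16, adjusted p = 0.0386) and LY-364747 (-0.63 ± 0.17, adjusted p = 0.0152) were smaller. With carbidopa the call was lost without MEF replicate 1 (0.161), MEF replicate 2 (0.117) or carbidopa replicate 2 (0.0895), and with LY-364747 without MEF replicate 1 (0.0888), MEF replicate 2 (0.0641) or LY-364747 replicate 1 (0.127). Lmod1 was 3.13-fold higher with CHIR-99021 than with carbidopa and 3.45-fold higher than with LY-364747 (adjusted p = 0.000144 and 0.00011).

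The compounds were compared with each other at the same dose. CHIR-99021 gave higher levels than carbidopa for 8 of 10 members and lower levels for none, against 6.62% of all genes higher and 8.08% lower. The uncalled members were Acta2 and Tpm2. The median log2 difference of the members was 0.95 and that of all genes -0.000712. Without CHIR-99021 replicate 1 the count was 5. Over all genes the calls in both directions went from 2227 to 715 and 1115 without CHIR-99021 replicates 1 and 2 and to 4632 without carbidopa replicate 2. Against LY-364747, CHIR-99021 gave higher levels for 9 of 10 members, all but Acta2, and lower levels for none, against 6.45% and 7.69% of all genes. The median was 1.19 for the members and 0.01 for all genes. The count was 6 without LY-364747 replicate 1 and 7 or 8 without any other of these 4 libraries, and the calls over all genes went from 2143 to between 663 and 1200 without any 1 of them. Both comparisons use the same CHIR-99021 libraries.

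**Figure D4:**
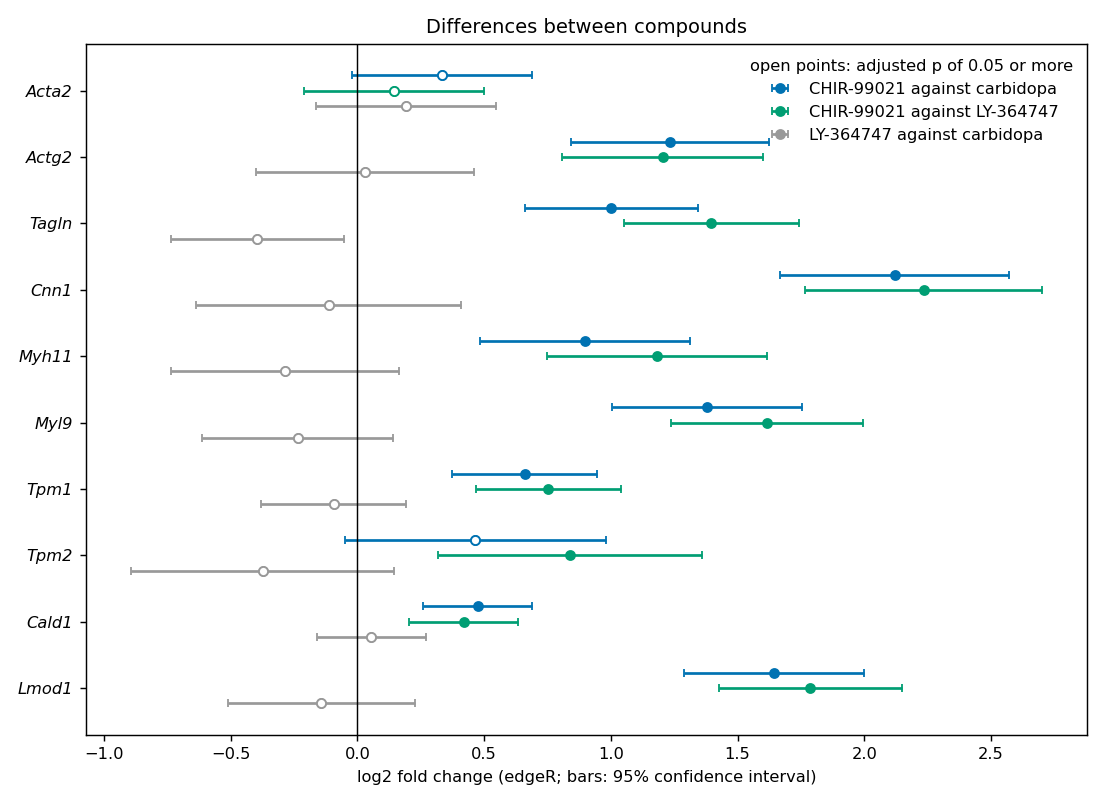
Log2 difference of each member between compounds, for CHIR-99021 against carbidopa, CHIR-99021 against LY-364747 and LY-364747 against carbidopa, with 95% confidence intervals. Every difference of CHIR-99021 from the other compounds is above 0, from 0.14 for Acta2 to 2.23 for Cnn1, and those of LY-364747 from carbidopa lie between -0.40 and 0.19.

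LY-364747 and carbidopa gave no called difference for any member in edgeR's quasi-likelihood test. Across all 15154 genes, 0.0132% were higher and 0% lower with LY-364747 than with carbidopa (2 genes in all), while 1367 had an unadjusted p under 0.05 and DESeq2's Wald test called 15 genes and no member. The member with the smallest p was Tagln, with a log2 difference of -0.40 (95% confidence interval -0.74 to -0.06, unadjusted p = 0.027, adjusted p = 0.519). The intervals of the other members all included 0, and the narrowest was that of Cald1 (-0.16 to 0.27) and the widest that of Cnn1 (-0.64 to 0.41). Without carbidopa replicate 2, 3 members were lower with LY-364747: Tagln (-0.59, adjusted p = 0.00683), Tpm1 (-0.27, adjusted p = 0.0344) and Tpm2 (-0.68, adjusted p = 0.0276), and the count over all genes was 3816.

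A further 14 smooth muscle genes outside the members were examined, of which Aoc3 did not pass the filter. With carbidopa 9 of 13 were lower and 2 higher, with LY-364747 8 lower and 2 higher, and with CHIR-99021 5 lower and 2 higher. Of all genes tested, 19.7% were lower and 18.0% higher with carbidopa, 17.2% and 13.7% with LY-364747 and 20.1% and 18.7% with CHIR-99021. Smtn, Mylk, Des, Pgm5 and Itga8 were lower in every treated group. Mylk, the kinase that phosphorylates Myl9, had 51.01 and 51.3 CPM in MEF and between 10.64 and 18.34 CPM in the treated libraries, with log2 fold changes of -2.15, -1.89 and -1.65 for carbidopa, LY-364747 and CHIR-99021. Pgm5, a protein of smooth muscle adhesion plaques, changed by -2.71, -2.37 and -2.48 on the log2 scale, and desmin (Des), the intermediate filament of muscle, by -1.70, -2.12 and -1.53. The genes that rose in every treated group were Ppp1r12b, a targeting subunit of myosin phosphatase (log2 fold changes 1.97, 2.25 and 2.08), and Pln, the phospholamban that restrains the calcium pump. Of the 2759 exon bases of Pln, 1644 overlap Gm47644 and 141 overlap Cep85l, both on the opposite strand. As for Tagln, whether the counting used strand is not given, so the source of these reads is uncertain. Pln had 0 and 1 reads in MEF, 4 and 23 with carbidopa, 35 and 27 with LY-364747 and 10 and 12 with CHIR-99021. The ratio of pooled reads per library size to MEF was 18.3 (exact 95% interval 3.02 to 750.0, counting error only) with carbidopa, 49.0 (8.48 to 1970) with LY-364747 and 18.4 (2.97 to 760.0) with CHIR-99021. Without carbidopa replicate 2 the first was 5.45 (0.539 to 268), and without carbidopa replicate 1 it was 31.1 (5.04 to 1280). Nexn and Csrp1 were lower with carbidopa and LY-364747 and uncalled with CHIR-99021 (log2 differences of -0.05 and 0.08).

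Of 12 regulators of these genes, 11 passed the filter. Srf had 31.53 and 27.62 CPM in MEF, with log2 differences of -0.15 with carbidopa (adjusted p = 0.356 in edgeR's quasi-likelihood test), -0.39 with LY-364747 (adjusted p = 0.0398) and 0.25 with CHIR-99021 (adjusted p = 0.133). Mrtfa, which encodes MRTF-A, was lower with carbidopa (-0.36, adjusted p = 0.0356) and uncalled with the others, and Mrtfb was uncalled throughout. Myocd, which encodes myocardin, did not pass the filter. It had 5 and 10 reads in MEF, 3 and 1 with carbidopa, none in either library with LY-364747 and 2 and 1 with CHIR-99021, so every treated library lay below MEF. Set at the floor of 3 reads per library, its level with LY-364747 would be 3.10-fold below MEF, with the MEF reads taken as exact. The ratio of MEF to treated reads per library size was 5.53 (exact 95% interval 1.76 to 22.9, counting error only) with carbidopa and 5.98 (1.69 to 32.2) with CHIR-99021. With LY-364747 this interval started at 4.53, and at 2.33 and 2.21 without LY-364747 replicates 1 and 2. Fhl2, a LIM protein and a known SRF target, fell in every treated group, with 114.1 and 109.1 CPM in MEF, 13.79 and 10.87 with carbidopa, 9.991 and 12.46 with LY-364747 and 26.49 and 25.77 with CHIR-99021. On the log2 scale Fhl2 changed by -3.18, -3.31 and -2.09, and it was 2.12- and 2.32-fold higher with CHIR-99021 than with carbidopa and LY-364747. Mef2c, Prrx1 and Klf4, a repressor of the smooth muscle program, were also lower in every treated group, Klf4 by 0.44, 0.56 and 0.55 on the log2 scale. Gata6, a transcription factor of vascular smooth muscle and of endoderm, was higher in every treated group (log2 fold changes 2.34, 2.20 and 2.46), and Foxo4 was higher with carbidopa and LY-364747 (0.47 and 0.52). The shares of all genes lower and higher were 19.7% and 18.0% with carbidopa, 17.2% and 13.7% with LY-364747 and 20.1% and 18.7% with CHIR-99021. Of the regulators, 5 of 11 were lower and 2 higher with carbidopa and with LY-364747, and 4 lower and 1 higher with CHIR-99021. The 7 that differed with carbidopa became 4 without either MEF replicate, and the 7 with LY-364747 became 4 without MEF replicate 2 or LY-364747 replicate 2.

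The nearest paralogs of the members, most of them made by non-muscle cells, were compared as well. Of 18, 13 passed the filter, with 6 lower and 1 higher with carbidopa, 8 lower and 1 higher with LY-364747 and 2 lower and 4 higher with CHIR-99021. Over all genes 19.7% were lower and 18.0% higher with carbidopa, 17.2% and 13.7% with LY-364747 and 20.1% and 18.7% with CHIR-99021. Acta1, the actin of skeletal muscle, fell with the smooth muscle actins, from 18.67 and 16.45 CPM in MEF to 1.036 and 0.6531 with carbidopa, 0.2806 and 0.213 with LY-364747 and 5.93 and 4.759 with CHIR-99021 (log2 fold changes -4.37, -6.12 and -1.71). The cytoplasmic actins moved less. Actb changed by -0.54, -0.52 and 0.07 on the log2 scale and Actg1 by -0.29, -0.53 and 0.34, of which the change of Actb with CHIR-99021 (adjusted p = 0.643 in edgeR's quasi-likelihood test) and that of Actg1 with carbidopa (adjusted p = 0.0566) were not called. Per kb, Acta2 made up 36.5% and 35.4% of the summed actin reads in the MEF libraries, as much as Actb with 34.6% and 36.3%, and between 2.22% and 4.5% in the treated libraries. Among the tropomyosins Tpm1 went from 18.4% of the reads per kb in both MEF libraries to between 39.0% and 44.7%, and Tpm4 went from 61.1% and 60.9% to between 39.4% and 44.4%. Tpm4 itself was lower with carbidopa and LY-364747 (-0.47 and -0.68) and uncalled with CHIR-99021 (0.13), and Tpm3 was lower with LY-364747 alone (-0.30).

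The transgelin, calponin, light chain and heavy chain families gave further contrasts. Tagln2 was lower in every treated group (log2 fold changes -1.07, -1.23 and -0.94), so the share of Tagln among transgelin reads per kb, 86.9% and 87.3% in MEF, stayed between 77.7% and 90.1%. Cnn2 was lower with LY-364747 (-0.43), higher with CHIR-99021 (0.35) and uncalled with carbidopa (-0.22), and Cnn1 was a small part of the calponin reads per kb in every library, from 0.385% to 2.87%. Myl12b was higher in every treated group (1.35, 1.22 and 0.74), whereas Myl9 fell with carbidopa and LY-364747 and was uncalled with CHIR-99021. The annotation holds another gene record named Myl12b that overlaps 739 exon bases of this gene and 462 of Myl12a, so the split of reads among them is uncertain. Myh9, the main non-muscle myosin heavy chain, was lower with carbidopa (-0.47), uncalled with LY-364747 (-0.38) and higher with CHIR-99021 (0.84), with 2570 and 1951 CPM in the CHIR-99021 libraries against 1307 and 1214 in MEF. Lmod2 and Lmod3, the leiomodins of striated muscle, had at most 2 reads in any library.

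**Figure D5:**
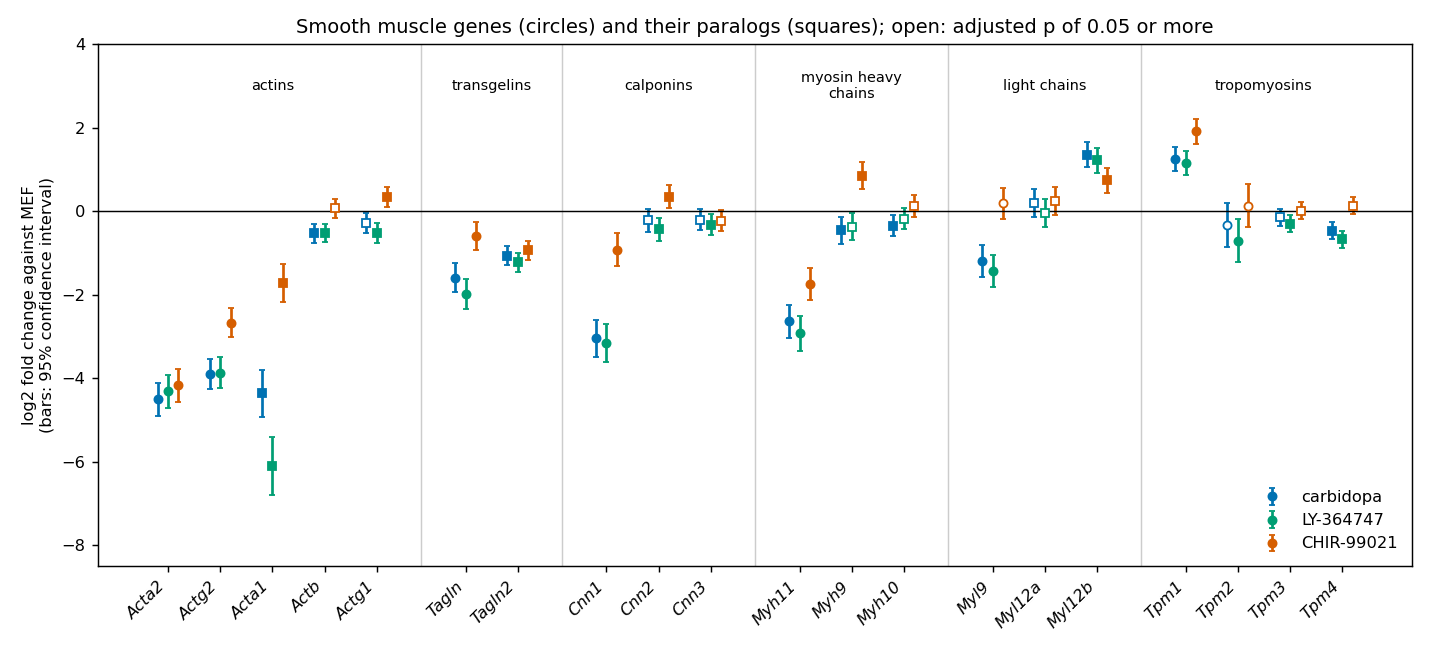
Log2 fold change against MEF of the members and of their nearest paralogs by family, for carbidopa, LY-364747 and CHIR-99021. Acta2, Actg2 and Acta1 lie far below 0, Actb and Actg1 lie between -0.54 and 0.34, and Tpm1 is the tropomyosin that lies above 1.

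Markers of other cells in the culture also differed between the groups, not all in the direction of the members. Among all genes tested, 19.7% were lower and 18.0% higher with carbidopa, 17.2% and 13.7% with LY-364747 and 20.1% and 18.7% with CHIR-99021. Of the 6 pericyte markers tested, 5 were lower in each treated group. The 7 genes of that list summed to 246.1 and 213.1 CPM in MEF, 65.62 and 80.66 with carbidopa, 87.11 and 87.28 with LY-364747 and 130.2 and 114.6 with CHIR-99021, with Cspg4 the most abundant and Higd1b at 0 in every library. This order of the sum is that of Actg2, Myh11 and Cnn1 in that MEF was highest and CHIR-99021 came next. Cspg4 made up 157.7 of the mean 229.6 CPM in MEF, and other genes of the list did not all follow. Notch3 had means of 42.4 CPM in MEF, 43.57 with LY-364747 and 36.67 with CHIR-99021. Some genes of the list with few reads were lowest with CHIR-99021. Of the 12 fibroblast markers 10 were lower and 1 higher in each treated group, and all 8 macrophage markers were lower in each. Between compounds, all 8 macrophage markers were lower with CHIR-99021 than with carbidopa or LY-364747, where 8 and 9 members were higher. The endothelial list summed to between 11.34 and 19.56 CPM, with Kdr the most abundant and Cldn5 at 0 in every library. Of its 3 tested genes 1 was lower with carbidopa, 1 with LY-364747 and 2 with CHIR-99021, and 0 were higher. Kdr had means of 10.35 CPM in MEF and 12.77 with CHIR-99021, and Emcn had 5.29 and 0.8684. The skeletal muscle list summed to between 1.19 and 2.476 CPM, with Ttn the most abundant and Myod1, Myog and Myf5 at or near 0. Its 1 tested gene was higher with CHIR-99021 (log2 fold change 1.03) and uncalled with the other compounds. The epithelial list summed to 1.041 and 0.9033 CPM in MEF and 5.124 and 4.991 with CHIR-99021, and to 2.26 and 1.679 with carbidopa and 1.403 and 1.385 with LY-364747. Its tested genes, Krt18 and Cldn4, were both higher with CHIR-99021 than in MEF (log2 fold changes 2.37 and 3.70, adjusted p = 0.00101 and 0.000772 in edgeR's quasi-likelihood test) and uncalled with the other compounds. Cldn4 had 2 and 2 reads in MEF and 36 and 29 with CHIR-99021. Krt8 and Cldn7 did not follow. Krt8 had 6 and 0 reads in MEF and 2 and 3 with CHIR-99021, and Cldn7 had 1 and 2 in MEF and 1 and 1 with CHIR-99021. Epcam and Cdh1 had no read in MEF. With CHIR-99021 Epcam had 2 and 5 reads and Cdh1 had 3 and 0. The part of these markers in the result was not tested.

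The mean profile of the 10 members over the 8 libraries, each centred on the log2 scale, was compared with that of 10399 genes of at least 100 normalized counts. The closest outside the lists by root mean square difference were Gsto1 and Pdzrn3 (0.115 for both on the log2 scale), Pxdc1 (0.126), Gpc1 (0.133) and Rnf19b (0.136). Gsto1 had 793.6 and 799.4 CPM in MEF, 288 and 235.6 with carbidopa, 236.9 and 243.4 with LY-364747 and 444.3 and 431.8 with CHIR-99021. Among the members Tagln was nearest to their mean profile (0.135), and Acta2 (1.34) and Tpm1 (1.22) were farthest, the former through its larger fall and the latter through its rise. These are descriptions of 8 libraries that share their groups.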

How the data were processed

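The authors mapped the reads to mm10 (GRCm38) with STAR 2.4.2a, according to the submitters' processing notes and the methods, and counted reads per gene with featureCounts. They deposited the counts for 8 libraries in 1 matrix, as whole numbers without normalization. The labels name a SMARTER kit and the methods a NEBNext kit, and neither the annotation release nor the use of strand in counting is given in the sources used here. Each library's group and replicate number come from its label. Whether the 2 libraries of a group came from separate cultures is not stated, so p-values measure only the spread between these libraries, which may be technical. The members and all gene lists were chosen with earlier results of these data known. The 8 hepatocyte markers were added after the files had been read.

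Counts were analysed in R 4.3.3 with edgeR 4.0.16 (filterByExpr, TMM and the quasi-likelihood test, in 1 fit of the 8 libraries with no term beside group), with Benjamini-Hochberg adjustment over 15154 genes and a threshold of 0.05. In the pairwise comparisons 6 contrasts were fitted. All members were named, and of the smooth muscle, regulator and paralog lists any gene that passed the filter could be named. Of each marker list up to 3 genes with the highest mean CPM and those at 0 were named, with exceptions. Myod1, Myog and Myf5 were named as genes at or near 0, and all 6 epithelial markers were named. The 5 genes most like the members were taken by the root mean square difference of centred log2(CPM + 0.5) profiles. Total counts of 15039566 to 20504338 set the precision, and a count of 0 allows up to 3 reads. Such floors cover counting error only, since reads are not independent molecules. Positions, merged exon lengths and overlaps are from GENCODE M21, in which 50354 of 50578 identifiers (99.6%) were found, and promoters are from RefSeq (GRCm38.p6). Replicates of each group differed by more than sampling noise. The method was tested on simulated counts. The alternatives were RLE size factors, DESeq2 1.42.0, no filter, at least 10 counts in every library, a replicate block, the compared groups alone, CPM on total counts and leaving out each library. A gene counted in the list of other smooth muscle genes is not reported here.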

Additional observations from a re-analysis of the deposited data

How the results depend on the processing

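The counts of members that differed stayed within 1.5 times of those reported under RLE size factors, DESeq2's Wald test, the stricter filter (10 counts or more in each library) and a fit of the compared groups alone, in all 6 comparisons. With no filter, 1 member (Tagln) differed between LY-364747 and carbidopa in place of 0. With 1 library left out, so that its group holds a lone library assumed to vary like the others, the count ranged from 5 to 9 for CHIR-99021 against carbidopa and from 0 to 3 for LY-364747 against carbidopa, and the log2 fold changes that changed sign, none of which was called with all libraries, ranged from -0.18 to 0.40 (Tpm2, CHIR-99021 against MEF), -0.13 to 0.38 (Acta2, CHIR-99021 against LY-364747) and, for LY-364747 against carbidopa, -0.14 to 0.18 (Actg2), -0.30 to 0.09 (Cnn1), -0.27 to 0.11 (Tpm1), -0.68 to 0.012 (Tpm2) and -0.31 to 0.01 (Lmod1). Over all genes, the calls of CHIR-99021 against carbidopa went from 2227 to 1027 and those of CHIR-99021 against LY-364747 from 2143 to 3673 when the compared groups were fitted alone. Those of LY-364747 against carbidopa went from 2 to 329 with no filter, 15 with DESeq2 and 0 with the compared groups alone. The cause was not tested. The differences between replicates correlated between groups with -0.16 to 0.13. This does not settle whether libraries shared a culture or batch, since replicate numbers need not match between groups. With the replicate block the members that differed numbered 9, 10, 7, 8, 9 and 0, as without it. On total counts in place of TMM, the summed CPM of the members was 6343 in MEF, 4515 with carbidopa, 4329 with LY-364747 and 6711 with CHIR-99021, which put CHIR-99021 above MEF. Of the members' log2 fold changes with 1 library left out, 203 kept their direction and their side of the threshold, 24 lost a call, 5 gained one and 8 changed sign, and under the other settings 354 kept both, 2 lost a call and 4 gained one. With 2 libraries per group, the calls lost when 1 library was left out were those of Lmod1, Tpm2 and Tagln against MEF and of Myh11, Tpm1, Tpm2 and Cald1 between compounds.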
